A study of Rattus norvegicus with 24 samples.

Results

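The genes described here are the 40 Ensembl gene IDs whose RNA level was higher in high-responder than in low-responder rats in both the amygdala and the dorsal raphe by the largest margin. They were chosen from 32662 IDs, of which 14785 reached a mean of at least 1 CPM (the count of an ID scaled to a library total of 1000000) in at least 1 group of libraries. In each region the difference between the lines was the mean log2(CPM + 0.5) of 6 high-responder libraries minus that of 6 low-responder libraries. The IDs above 0 in both regions numbered 5328 after the rule had set aside 5 IDs, and they were ranked by the smaller of the 2 differences. The first 40 are called members and are named by their rank. Of the 5 IDs set aside, 3 would otherwise have been among the 40.

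The samples were 24 poly-A RNA sequencing libraries of brain tissue from 60-day-old rats, with 6 libraries each of high-responder amygdala, low-responder amygdala, high-responder dorsal raphe and low-responder dorsal raphe. The 2 lines were kept apart by breeding for how strongly a rat responds to novelty, and no drug, gene deletion or transgene is named in the labels of any group. One line stands for each response, so a difference between the lines cannot be told apart from other differences between these rats. The labels give neither the sex of the rats, nor whether a library came from a single rat or from a pool, nor whether equal replicate numbers in the 2 regions mark the same rat, so the spread between libraries may be partly technical.

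High responders are rats that explore an unfamiliar arena vigorously, and low responders are rats that explore it little. Selective breeding raises or lowers the frequency of many gene variants at once, some of which act on the response and some of which are carried along. The amygdala takes part in fear and emotional learning, and the dorsal raphe supplies much of the forebrain with serotonin.

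The deposited tables give IDs without gene symbols. The gene table at hand, a RefSeq table of the assembly GRCr8, gives no Ensembl IDs, so 0 of the 40 members could be matched. That would hold for any ID and is not a trait of the members. No member is therefore given a name, a role, a position or a sequence, and at most 2 IDs per direction are printed in a comparison. Marker lists for the cell types of the 2 regions could not be applied for the same reason, so the labelled tissues were not checked against markers. In bulk tissue, fewer cells of a type and less RNA per cell cannot be told apart.

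Library totals ranged from 9232983 to 20194601 counts, and a count of 0 allows up to 3 counts, which is 0.149 CPM in the largest library and 0.325 CPM in the smallest. That limit covers counting error only. Libraries are cited below by their replicate number within a group, and each also carried a running library number. Every low-responder library had a lower running number than every high-responder library, so the order of the running numbers and the line cannot be told apart. Within each group the widest break in the running numbers parts earlier from later libraries, 4 and 2 in each amygdala group and in low-responder dorsal raphe, and 3 and 3 in high-responder dorsal raphe. Values within earlier and within later libraries are given below. Within each part every low-responder running number is still below every high-responder one, so the split does not separate order from line.

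The values that chose the members are a description and carry no test. The difference between the lines had a median of 0.71 over the 40 members in the amygdala (range 0.46 to 2.59) and of 0.75 in the dorsal raphe (range 0.45 to 3.59), on the log2(CPM + 0.5) scale. Over the 14785 IDs that reached 1 CPM the medians were 0.01 and 0.03. A difference of at least 1, which is 2-fold on this scale, was reached by 9 amygdala and 14 dorsal raphe differences, and in both regions by 8 members. The difference was larger in the dorsal raphe for 23 members and larger in the amygdala for 17. Because 0.5 is added to each CPM, the scale understates the fold of members with low counts. The levels were low in general: in 20 members the highest group mean was under 5 CPM, and in 5 it was 20 CPM or more.

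**Figure D1:**
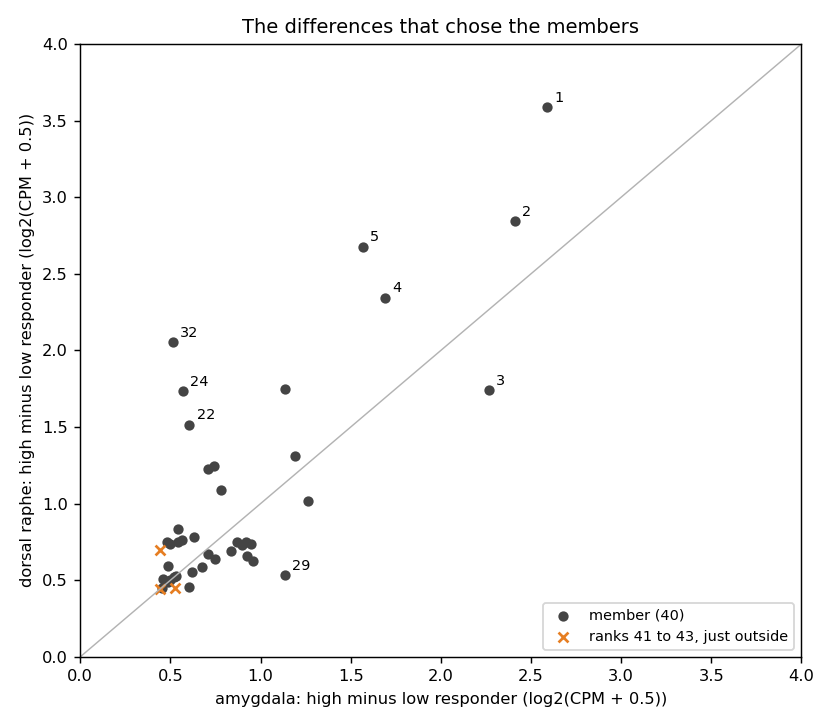
Each point is 1 member, placed by its high minus low-responder difference in the amygdala (x axis) and in the dorsal raphe (y axis), both in log2(CPM + 0.5); crosses are ranks 41 to 43, just outside the choice, and the grey line marks equal differences. Most members lie near the lower left corner, and ranks 1 to 5 stand apart from them with values up to 2.59 and 3.59.

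The margin at the edge of the choice was thin. The smaller difference was 0.46 at ranks 38 and 39 and 0.45 at rank 40, against 0.45 at rank 41 and 0.44 at ranks 42 and 43. No large step separates the members from the IDs just outside.

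Few members parted the lines completely. All 6 high-responder libraries lay above all 6 low-responder libraries for 2 members in the amygdala, ranks 13 and 29, where 0.358% of the 14785 IDs did so. In the dorsal raphe 6 members did so, ranks 1, 8, 17, 24, 27 and 28, where 0.602% of the IDs did. The rule used this contrast, so the shares are set side by side without a reading. No member did so in both regions, and among all 14785 IDs the count for both regions was 0 as well. Rank 29 lay between 6.38 and 9.21 CPM in high-responder amygdala and between 1.82 and 5.77 CPM in low-responder amygdala. In its dorsal raphe libraries the ranges of 4.65 to 9.29 and 2.19 to 7.74 CPM overlapped. In 32 members the lines overlapped in both regions.

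The rank 1 member, ENSRNOG00000061943, ranged from 3.00 to 13.6 CPM in high-responder amygdala (median 7.10) and from 3.38 to 12.5 CPM in high-responder dorsal raphe (median 7.06). In low-responder dorsal raphe its highest value was 0.230 CPM, from 3 counts. The 2 lines did not overlap in the dorsal raphe. In low-responder amygdala 4 libraries lay at or below 0.154 CPM, while library 1 stood at 7.50 and library 6 at 3.44 CPM, inside the high-responder range. The amygdala difference between the lines was 2.59 and the dorsal raphe difference 3.59.

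The rank 2 member, ENSRNOG00000006365, was low in most low-responder libraries and split the high-responder ones. In high-responder amygdala, libraries 1, 2 and 3 stood at 22.7, 22.6 and 19.4 CPM and libraries 4, 5 and 6 at 0.185, 0.0904 and 0 CPM. All 6 low-responder amygdala libraries lay at or below 0.521 CPM. In high-responder dorsal raphe, library 3 stood at 0.0517 CPM and the others between 6.05 and 27.3 CPM. Low-responder dorsal raphe library 5 reached 8.51 CPM, and the other 5 lay at or below 0.219 CPM. A library of the low state was thus found among the high responders in both regions, and the differences were 2.41 and 2.84.

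The rank 3 member lay between 4.46 and 13.7 CPM in high-responder amygdala (median 10.6) and between 4.22 and 11.1 CPM in high-responder dorsal raphe (median 6.80). In low-responder amygdala the median was 0.954 CPM, with library 4 at 14.4 CPM above every high-responder library. In low-responder dorsal raphe, libraries 1, 2 and 4 stood at 8.31, 4.17 and 4.36 CPM and libraries 3, 5 and 6 between 0.230 and 0.314 CPM. The high-responder libraries were uniformly high and the low-responder libraries mixed.

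The rank 4 member showed the same arrangement at a higher level. High-responder libraries lay between 14.2 and 35 CPM in the amygdala and between 15.2 and 50.6 CPM in the dorsal raphe. Low-responder amygdala libraries 1, 4 and 6 stood at 43.5, 17.3 and 55.5 CPM, and libraries 2, 3 and 5 at or below 1.33 CPM. Low-responder dorsal raphe libraries 1, 5 and 6 stood at 17.1, 55.7 and 23.2 CPM, and libraries 2, 3 and 4 at or below 1.13 CPM. The highest value in each region belonged to a low-responder library, although the means of the log values differed by 1.69 and 2.34 toward high responders.

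The rank 5 member was high in all 6 high-responder amygdala libraries, between 16.8 and 41.7 CPM. It was high in 4 low-responder amygdala libraries too, between 24.2 and 35.4 CPM, and low in libraries 1 and 3, at 0.758 and 0.539 CPM. In high-responder dorsal raphe, libraries 1 and 5 were low, at 0.456 and 0.325 CPM, and the others lay between 18.7 and 51.1 CPM. In low-responder dorsal raphe, library 5 held the highest value of the member, 60.8 CPM, and the other 5 lay at or below 0.352 CPM. The high libraries of both lines stood at overlapping levels, the lines differed in how many libraries were low, and the differences were 1.57 and 2.68.

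Ranks 6 to 8 were low-count members. Rank 6 ranged from 0.0949 to 1.80 CPM in high-responder amygdala (median 0.976) and from 0.708 to 2.71 CPM in high-responder dorsal raphe (median 1.18), and its low-responder libraries held 0 to 2 counts each except dorsal raphe library 6, with 16 counts and 1.67 CPM. Rank 7 was even among high responders, from 1.29 to 2.09 CPM in the amygdala and from 0.975 to 2.12 CPM in the dorsal raphe. Its low-responder medians were 0.334 and 0.0365 CPM, with highest values of 1.31 and 1.05 CPM that overlapped the high-responder libraries. Rank 8 ranged from 1.16 to 2.09 CPM against 0 to 1.43 CPM in the amygdala, high against low responders. In the dorsal raphe it ranged from 0.866 to 2.76 against 0.105 to 0.792 CPM, with no overlap.

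The rank 9 member had high and low libraries in every group. High-responder amygdala libraries 1, 3 and 4 stood at 5.20, 6.37 and 7.12 CPM, and high-responder dorsal raphe libraries 1, 2 and 5 at 6.20, 7.75 and 7.69 CPM. Among low responders, amygdala library 4 stood at 5.62 CPM and dorsal raphe library 3 at 6.78 CPM. The remaining libraries of all 4 groups lay at or below 1.17 CPM. High values were reached by 3 of 6 high-responder and 1 of 6 low-responder libraries in each region.

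Ranks 10 to 12 were graded, with no wide gap between their libraries. Rank 10 had medians of 6.74 and 3.62 CPM in high and low-responder amygdala and of 2.95 and 1.35 CPM in the dorsal raphe. Its ranges overlapped in both regions, at 3.89 to 11.9 against 1.39 to 8.13 CPM and at 1.75 to 3.80 against 0.968 to 2.26 CPM. Rank 11 had medians of 1.37 and 0.729 CPM in the amygdala and 0.736 and 0.178 CPM in the dorsal raphe, with 0 counts in 2 low-responder amygdala and 3 low-responder dorsal raphe libraries. Rank 12 had medians of 4.15 and 2.23 CPM in the amygdala and 4.35 and 1.64 CPM in the dorsal raphe. One low-responder amygdala library, number 4 at 4.86 CPM, lay above the high-responder median of rank 12.

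**Figure D2:**
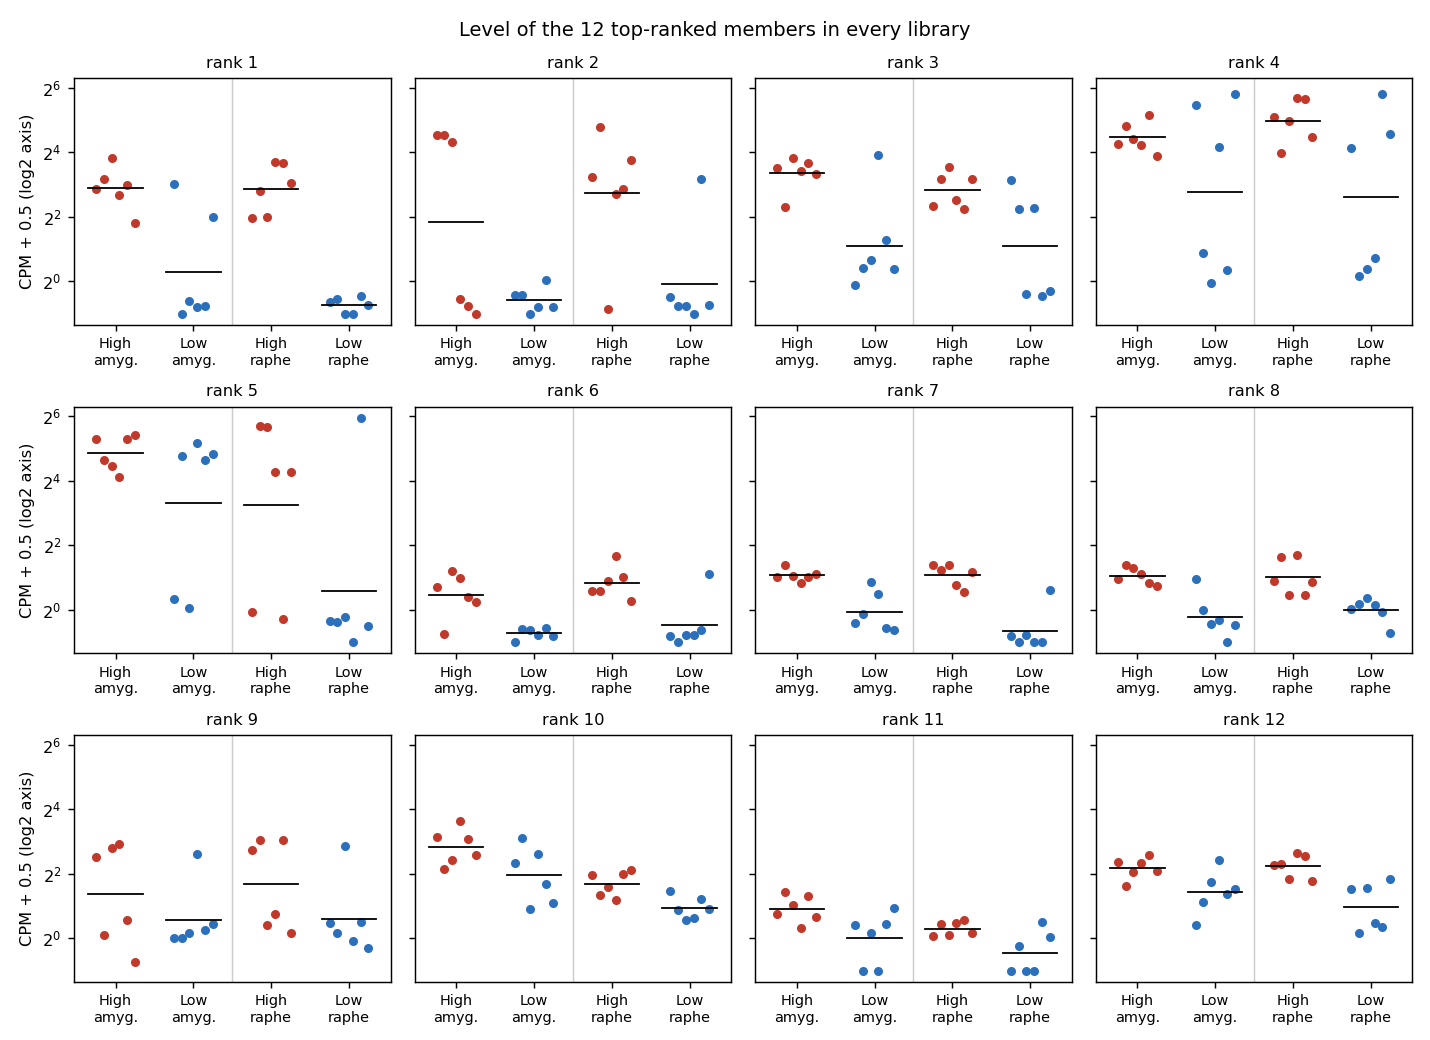
Level of ranks 1 to 12 in every library, as CPM + 0.5 on a log2 axis; red points are high-responder and blue points low-responder libraries in order of their number, and black lines are means of the log values (n = 6 per group). Ranks 1, 2, 3, 4, 5 and 9 fall into a low and a high set of libraries within a line, in ranks 1, 3 and 4 among low responders only. Ranks 10 to 12 are graded.

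This parting of libraries was measured for every ID. A gap was counted where the sorted log2(CPM + 0.5) values of the 12 libraries of a region held a step of at least 1 with at least 2 libraries on each side. The measure was chosen after the values were seen. A gap was found in 8 members in the amygdala (0.561% of the 14785 IDs had one) and in 10 in the dorsal raphe (0.487% of the IDs). In both regions it was found in 7 members, ranks 1, 2, 3, 4, 5, 9 and 32, where 20 of the 14785 IDs (0.135%) had one. A gap between the lines enlarges the difference that chose the members, so these shares are a description.

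The gaps were wide. Rank 2 had 0.521 CPM as the highest value below its gap and 19.4 CPM as the lowest above it in the amygdala, a step of 4.28 on the log2 scale. Rank 5 stepped from 0.456 to 18.7 CPM in the dorsal raphe, which is 4.33. Rank 32 stepped from 0.332 to 5.99 CPM in the amygdala and from 0.920 to 7.52 CPM in the dorsal raphe. The narrowest was rank 3 in the amygdala, from 1.91 to 4.46 CPM, a step of 1.04.

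Counted over the 7 members with a gap in both regions, 35 of 42 high-responder amygdala values and 35 of 42 high-responder dorsal raphe values lay above it. For low responders 15 of 42 amygdala values and 11 of 42 dorsal raphe values did. Each 42 values come from 7 members in the same 6 libraries, so they are not independent. The rule chose the members on this contrast, so the counts are a description. The high and the low state occurred in both lines in each of the 7 members when the 2 regions are read together, except that rank 1, rank 3 and rank 4 had no high-responder library below the gap. Rank 32 was above it in 5 of 6 high-responder libraries of each region, in 4 low-responder amygdala libraries and in 2 low-responder dorsal raphe libraries.

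Libraries that carry equal replicate numbers in the 2 regions of a line often did not share the state. They lay on the same side of the gap in 58 of 84 pairs (69.0%), and libraries of different replicate numbers in the same line did so in 282 of 420 pairs (67.1%). The pairs pool 7 members over the same libraries and are not independent. In ranks 1, 3 and 4 every high-responder library lay above the gap in both regions, so those pairs agree under any numbering. The 2 percentages therefore cannot show whether equal numbers share a state. In rank 2, high-responder libraries 4, 5 and 6 were below the gap in the amygdala and above it in the dorsal raphe. In rank 5, high-responder libraries 1 and 5 were above it in the amygdala and below it in the dorsal raphe.

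**Figure D3:**
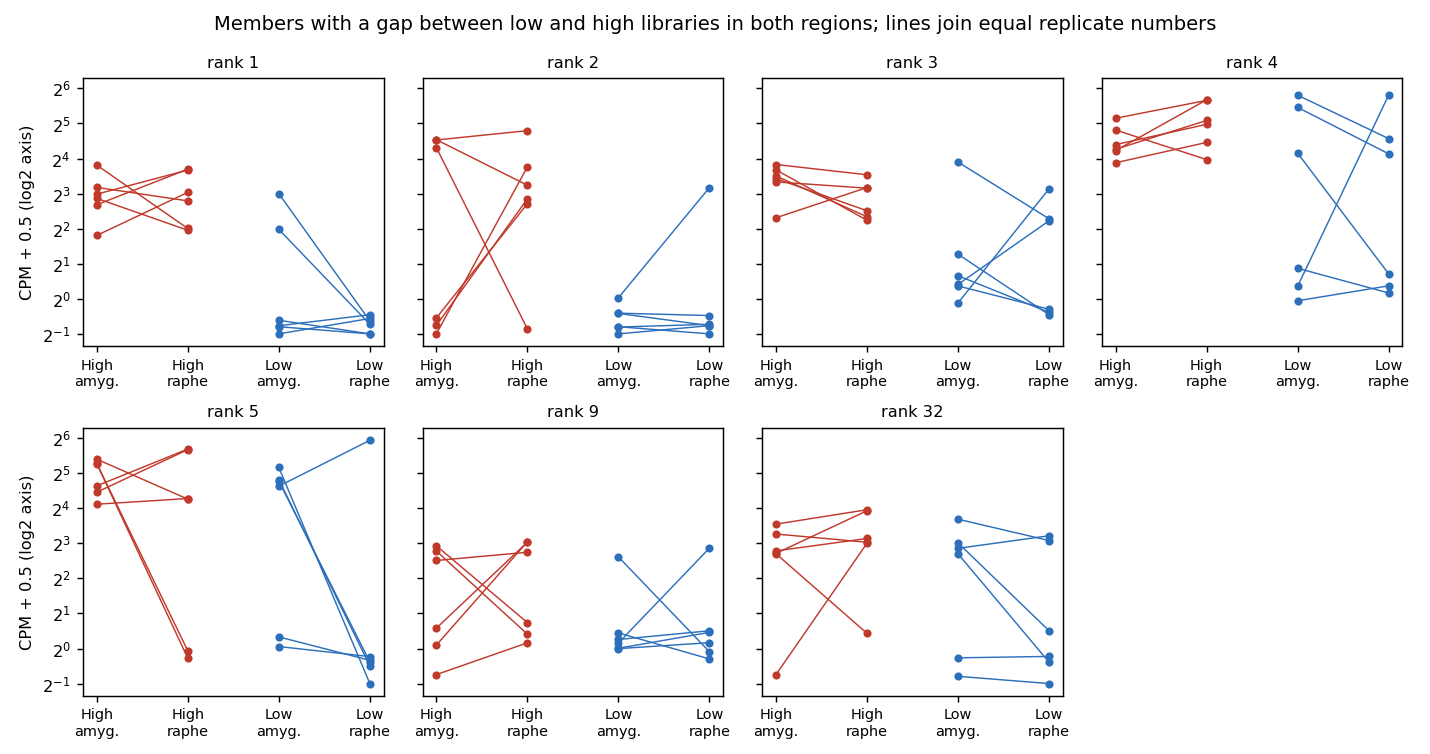
The 7 members with a gap in both regions, as CPM + 0.5 on a log2 axis; each line joins the amygdala and dorsal raphe libraries of equal replicate number within a line of rats (red high responder, blue low responder), and the labels do not say whether they are the same rat. Lines that cross from a high to a low value, as in ranks 2, 5 and 9, show numbers that do not share the state across regions.

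The spread within groups was wide among members. The rule did not scale its differences by this spread, which can favour IDs that vary, so the values are a description. The SD of log2(CPM + 0.5) within a group, averaged over the 4 groups as a root mean square, had a median of 0.56 over the 40 members (range 0.27 to 2.26) and of 0.23 over the 14785 IDs. Among IDs under 10 CPM on average the medians were 0.54 for 34 members and 0.34 for 4704 IDs. The members did not move as a block from library to library: over the 780 pairs of members, the correlation of their deviations from the group means across the 24 libraries had a median of 0.02, with a lowest of -0.58 and a highest of 0.66 (ranks 7 and 39). All pairs share the same libraries and depths, and the counts are sparse.

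The difference between the lines was also read within earlier and within later libraries. The same libraries chose the members, so differences above 0 follow in part from the rule and are a description. The same counts over all IDs are not given here. The line difference was above 0 in all 40 members in earlier amygdala, earlier dorsal raphe and later dorsal raphe libraries. In later amygdala libraries, which hold 2 of each line, it was above 0 in 37 members. The 3 exceptions were rank 2 at -0.49, rank 9 at -0.43 and rank 32 at -1.95. Among the widest dorsal raphe differences, 2 were near 0 in later libraries: rank 4 stood at 3.33 in earlier and 0.07 in later libraries, and rank 5 at 4.25 and 0.03. Rank 1 had differences of 2.99 and 1.79 in the amygdala and 3.05 and 4.06 in the dorsal raphe. These subsets hold 2 to 4 libraries of a line, and the part of the running number in the choice of members was not tested.

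Single libraries carried some members. With each of the 24 libraries left out in turn, 20 members stayed among the first 40 every time. For 12 members the smaller difference fell to less than its value divided by 1.5. Rank 36 fell to -0.07 without high-responder amygdala library 2, which stood at 19.3 CPM where the other 5 lay between 1.06 and 1.99 CPM. In the dorsal raphe the same member reached 27.3 CPM in high-responder library 5 and 1.15 to 3.02 CPM in the others. Rank 32 fell to -0.02 without low-responder amygdala library 3, which stood at 0.0769 CPM. Ranks 1, 6, 7 and 8 moved least among the first 8, to no lower than 2.33, 1.04, 1.02 and 0.88.

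**Figure D4:**
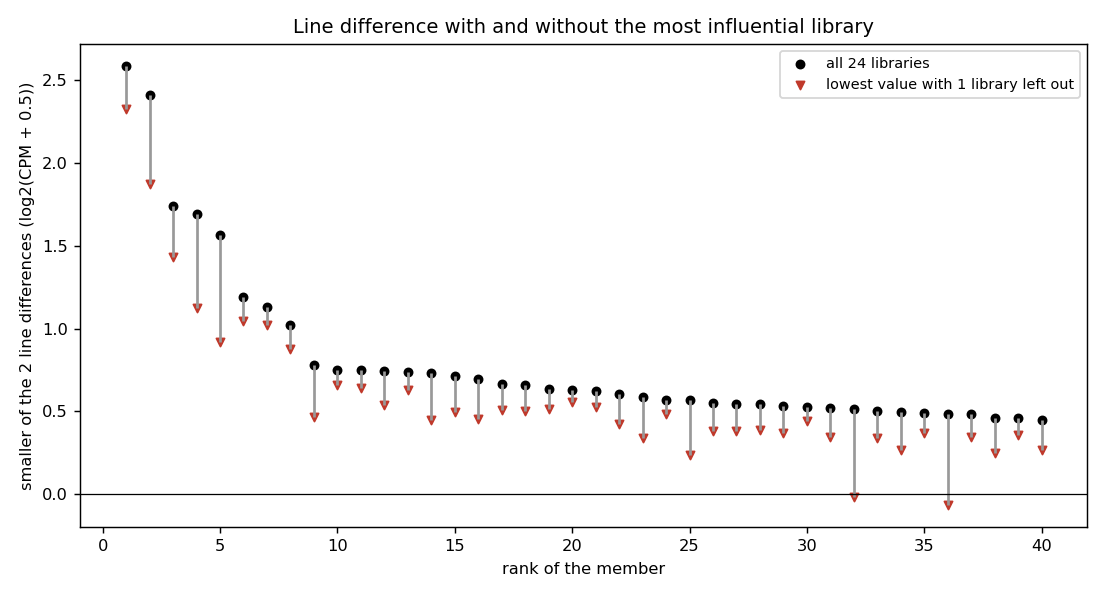
For each member by rank, the smaller of its 2 line differences in log2(CPM + 0.5) over all 24 libraries (black) and its lowest value when 1 library was left out (red triangle). Ranks 32 and 36 drop below 0, and ranks 1 to 8 stay at 0.88 or above.

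In a fit of the line comparison over all genes, given as a description because the rule used the same contrast, edgeR's quasi-likelihood test called 0 of the 33 members tested as higher in high responders in the amygdala, where 0% of 14265 genes were called higher, 0.0210% lower and 0.0210% in either direction. At an unadjusted edgeR p under 0.05 there were 18 of the 33 members, where 1189 of the 14265 genes were. DESeq2 called 3 members and limma voom 6, and their shares over all genes are not given here. In the dorsal raphe edgeR called 2 of 35 members, ranks 1 and 24, where 0.0347% of 14390 genes were called higher, 0.0278% lower and 0.0625% in either direction. At an unadjusted edgeR p under 0.05 there were 26 of the 35 members, where 726 of the 14390 genes were. Rank 24 lay between 1.65 and 3.19 CPM in high-responder and at or below 0.732 CPM in low-responder dorsal raphe. In the amygdala it was under 1 CPM in every library.

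Whether the members differ between the 2 regions was not used to rank them. It was tested over all 24 libraries with edgeR's quasi-likelihood test, taking the average of both amygdala groups minus that of both dorsal raphe groups. The minimum of 1 CPM in at least 1 group can however admit a member through 1 region alone. Ranks 13 and 24 reached it only in high-responder dorsal raphe, and both were called higher there. Ranks 11 and 23 reached it only in high-responder amygdala and were not called. All 40 members passed the filter on low counts, and 17 (42.5%) were called at an adjusted p under 0.05, where 65.8% of the 14977 genes tested were called. Of these, 7 were higher in the amygdala (31.8% of genes) and 10 higher in the dorsal raphe (34.0% of genes). The size of the region difference had a median of 0.66 on the log2 scale over the members and 0.36 over all genes tested. Neither the 2 shares nor the 2 medians were tested against each other.

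The widest region difference belonged to rank 20, ENSRNOG00000017872, which was higher in the amygdala. It ranged from 28.3 to 43.9 CPM in high-responder and 17.8 to 29.1 CPM in low-responder amygdala, against 2.27 to 7.06 and 1.15 to 3.40 CPM in the dorsal raphe. All 12 amygdala libraries lay above all 12 dorsal raphe libraries, with means of 28.1 ± 8.51 and 3.24 ± 1.68 CPM (SD, n = 12 each). The fitted log2 difference was 3.16 with an SE of 0.18 and an edgeR adjusted p of 9.03e-14. Its line difference was of like size in both, 0.63 and 0.79.

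Rank 1, ENSRNOG00000061943, was called higher in the amygdala by a fitted log2 difference of 1.96, with an SE of 0.67 and an edgeR adjusted p of 0.0135. High-responder amygdala averaged 7.54 ± 3.49 CPM and high-responder dorsal raphe 7.62 ± 4.03 CPM (SD, n = 6 each), a difference within their spread. Low-responder amygdala averaged 1.88 ± 3.07 CPM, carried by 2 libraries, and low-responder dorsal raphe 0.110 ± 0.0943 CPM. The call ended without low-responder amygdala library 1 (fitted log2 difference 1.34, edgeR adjusted p = 0.0622), with limma voom (1.23, adjusted p = 0.107) and in later libraries alone (1.10, edgeR adjusted p = 0.269), and over the 33 alternatives the adjusted p ranged from 0.00587 to 0.269. Rank 10 was also higher in the amygdala, where it averaged 5.53 ± 3.09 CPM, and 2.15 ± 0.968 CPM in the other region (SD, n = 12 each). Its fitted log2 difference was 1.39 with an SE of 0.26 and an edgeR adjusted p of 5.8e-05.

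Ranks 22, 33 and 13 were, among called members, the most strongly higher in the dorsal raphe. Rank 22, ENSRNOG00000058047, stood at 3.88 ± 2.85 CPM there and 1.06 ± 0.826 CPM in the amygdala (SD, n = 12 each). Its fitted log2 difference was -1.77 with an SE of 0.41 and an edgeR adjusted p of 0.000615. High-responder dorsal raphe held the top values, from 2.82 to 7.85 CPM, and low-responder dorsal raphe library 1 joined them at 6.34 CPM while the other 5 lay between 0.460 and 1.78 CPM. In later libraries alone the call of rank 22 ended (fitted log2 difference -0.998, edgeR adjusted p = 0.129), and the adjusted p ranged from 8.23e-05 to 0.129 over the alternatives. Rank 33, ENSRNOG00000062062, averaged 2.52 ± 1.25 CPM in the dorsal raphe and 0.808 ± 0.583 CPM in the amygdala. The fit gave it -1.63 on the log2 scale with an SE of 0.33 and an edgeR adjusted p of 0.000116. Rank 13 averaged 1.33 ± 0.538 and 0.539 ± 0.423 CPM in the same order. The fit gave it -1.58 with an SE of 0.22 and an edgeR adjusted p of 1.06e-06. Rank 13 passed the minimum of 1 CPM only through high-responder dorsal raphe, so its region difference is a description. In rank 13 the lines parted completely in the amygdala, at 0.452 to 1.26 against 0.0717 to 0.304 CPM, and overlapped in the dorsal raphe, at 1.46 to 1.96 against 0.440 to 1.53 CPM.

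**Figure D5:**
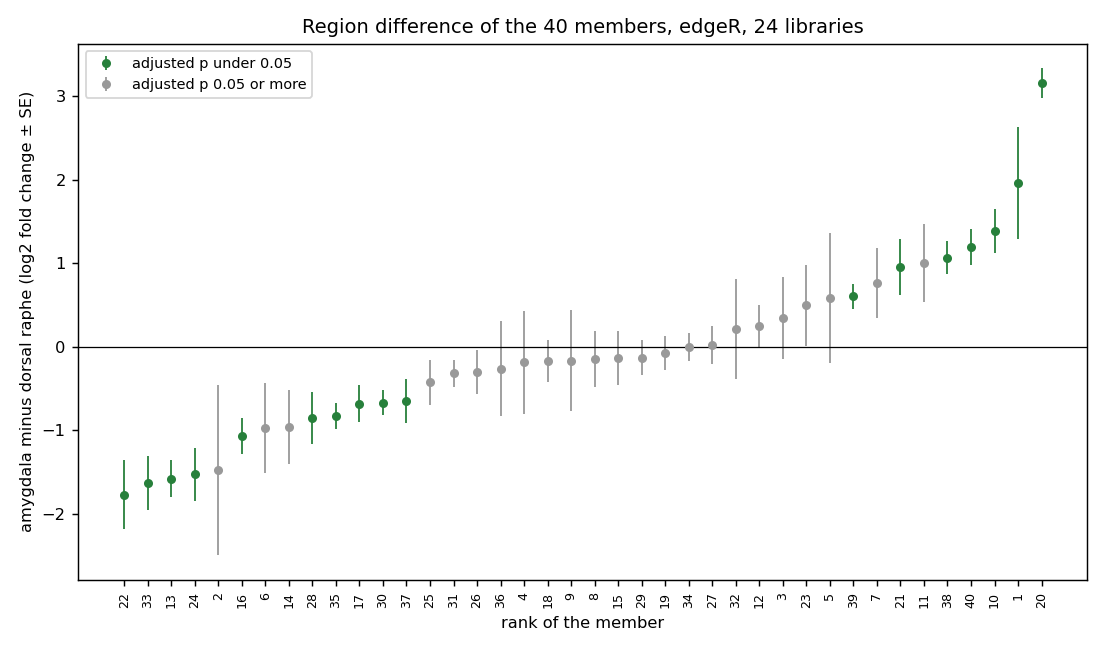
Amygdala minus dorsal raphe log2 fold change with its SE for each of the 40 members from edgeR on 24 libraries, ordered by size and labelled by rank; green marks an adjusted p under 0.05. Rank 20 stands at 3.16, 10 called members lie below 0, and members with a gap such as ranks 2 and 5 have wide error bars.

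The running library number did not enter the rule by name. Later libraries were however 3 of 6 in high-responder and 2 of 6 in low-responder dorsal raphe. An ID higher in later libraries thereby gains a larger dorsal raphe difference. The direction of the calls below is therefore not independent of the rule. Later dorsal raphe libraries were compared with earlier ones with the line as a term, a split that was known from earlier work on these data to part those libraries. edgeR called 7 of the 35 members that passed the filter on low counts, where 48.1% of 14390 genes were called. All 7 were higher in later libraries (24.3% of genes) and none was lower, where 23.8% of genes were. They were ranks 1, 4, 25, 29, 30, 36 and 40. Rank 36 had a median of 2.41 CPM in later and 1.67 CPM in earlier libraries, and high-responder library 5 stood apart at 27.3 CPM. Rank 30 was the clearest, with 4.05 to 6.61 CPM in 7 earlier and 7.28 to 10.6 CPM in 5 later libraries, no overlap, and a fitted log2 difference of 0.79 with an SE of 0.12 and an edgeR adjusted p of 0.00230. For rank 1 the fit gave 1.35 with an SE of 0.30 and an edgeR adjusted p of 0.00390, and the other 5 had adjusted p values from 0.0403 to 0.0480.

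The count of called dorsal raphe members was lower when a single library was left out. It fell to 2 without high-responder library 5 or low-responder library 3. It fell to 3 when a single library was dropped from among high-responder 1 to 4 or low-responder 4 and 5. Without low-responder library 1 it was 4. The shares of all genes called in these fits are not given here. A loss of calls over all genes therefore cannot be told apart from one particular to the members. In the amygdala the comparison of later with earlier libraries called 0 of 33 members with edgeR, where 0 of 14265 genes were called (0%). At an unadjusted edgeR p under 0.05 there were 5 of the 33 members, where 545 of the 14265 genes were. DESeq2 and limma voom called 0 members each, and their shares over all genes are not given here.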

How the data were processed

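RNA of amygdala and dorsal raphe from 2 rat lines was extracted with the miRNeasy kit and poly-A libraries were built from it, per the labels' protocols. The authors deposited 1 table of raw, unnormalized counts per library, by Ensembl gene ID, with 0 lines that name no gene. Trim Galore, STAR and the rat build rn6 were used, per the submitters' processing notes. Versions, the counting program, the annotation and the strand setting are not given in the sources used here, so IDs that share reads with a copy, an overlapping gene or an antisense partner are uncertain. Depth limits the precision: totals ran from 9232983 to 20194601 counts.

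CPM was computed from each library total, scaled to 1000000, without further normalization. Tests used edgeR 4.0.16 in R 4.3.3 (filterByExpr, TMM, glmQLFit, glmQLFTest) on all genes, with Benjamini-Hochberg adjusted p under 0.05. SE is the log2 fold change over the square root of F. DESeq2 1.42.0 and limma 3.58.1 were alternatives. The fits were tested on simulated counts. The members and lists were chosen with earlier results of these data known. Named are all 40 members, by rank, with values for ranks 1 to 12, the 3 widest called region differences per direction and ranks 41 to 43. Values of ranks 24, 29, 30, 32 and 36 are given beyond this rule, chosen after they were seen. IDs without a symbol are printed for at most 2 per direction. Gene symbols were not at hand, so marker lists were not applied.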

Additional observations from a re-analysis of the deposited data

Results flagged for a closer look

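Each value was set against the other 5 of its group for 21 members, ranks 1 to 13, 20, 22, 24, 29, 30, 32, 33 and 36. In 11 of 84 groups the highest value stood apart, with a distance to the nearest other above 0.625 of the range. Chance flags about 1 in 20 groups of unselected, normally distributed values. CPM values need not be so distributed, and the rule chose the members on these same values. The number of such groups is therefore a description. Of the 11, 9 were in low-responder groups, and ranks 24, 29, 30, 32 and 36 were included after their values were seen. In low-responder dorsal raphe these were 8.51 CPM for rank 2 and 60.8 CPM for rank 5 in library 5, 1.67 CPM for rank 6 and 1.05 CPM for rank 7 in library 6, 6.78 CPM for rank 9 in library 3 and 6.34 CPM for rank 22 in library 1. In low-responder amygdala they were 14.4 CPM for rank 3 and 5.62 CPM for rank 9 in library 4, and 1.43 CPM for rank 8 in library 1. The values of ranks 6, 7 and 8 rest on 16, 10 and 17 counts. The other 2 belonged to rank 36, at 19.3 CPM in high-responder amygdala library 2 and 27.3 CPM in high-responder dorsal raphe library 5.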

How the results depend on the processing

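The choice of members kept 28 to 38 of 40 with pseudocounts of 0.1 and 2, TMM or RLE scaling, a minimum of 0.2 CPM and medians, and 32 to 38 without any one library. It kept 24 with earlier and 15 with later libraries alone. It kept 20 at a minimum of 5 CPM, where 20 members no longer reach the minimum. Members parted completely without any one library numbered 2 to 5 (amygdala), 6 to 10 (dorsal raphe) and 0 to 1 (both). Leaving out a library can only keep or raise such a count, and the same counts over all IDs are not given here. In the amygdala the count rose to 4 without high-responder library 2, 4 or 6 and to 5 without low-responder library 3, in the dorsal raphe to 10 without low-responder library 6, and in both to 1 without high-responder amygdala library 2, high-responder dorsal raphe library 1, low-responder amygdala library 1 or low-responder dorsal raphe library 5.

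In the region test 15 to 19 members were called without any one library, 6 to 9 higher in the amygdala and 9 to 11 higher in the dorsal raphe. With earlier libraries alone 6 were higher in the dorsal raphe, and with later ones alone 4 were higher in the amygdala. The cause was not tested. Members called between later and earlier dorsal raphe libraries numbered 2 to 6 without any one library and 0 throughout in the amygdala. In the line comparison DESeq2 called 3 and limma voom 6 members in the amygdala, against 0. For the alternative fits in this section the share of all genes called is not given. With the replicate number as a block, edgeR called 15 members in the region test and, between the lines, 0 amygdala calls and 1 dorsal raphe call against 2. Equal replicate numbers did not meet the condition for pairing, a correlation over 0.1 in every pair. Across regions 1 of 6 pairs in each line exceeded it. Between the lines 2 of 6 amygdala pairs (range -0.33 to 0.58) and 3 of 6 dorsal raphe pairs (range -0.52 to 0.65) did. Across regions 1 of 6 high-responder and 0 of 6 low-responder amygdala libraries correlated best with their own number. Members with a gap in both regions numbered 5 for a gap of at least 2 and 6 with at least 3 libraries on each side, both chosen after seeing the data.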

Other observations

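In the order of the deposited tables, whose meaning is not given, ranks 18 and 10 stood 13 lines apart, at lines 28290 and 28303 below the header. Ranks 4 and 15 stood 44 lines apart, at lines 23185 and 23229. Ranks 30 and 6 stood 62 lines apart, at lines 28156 and 28218. No other members were closer than 65 lines.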
